A study of Rattus norvegicus with 6 samples.

Results

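The immediate early genes are transcribed within minutes of a stimulus, without new protein having to be made first. The proteins of the Fos and Jun families pair through leucine zippers to form AP-1, a dimer that binds DNA, and EGR1, ATF3 and KLF6 are DNA-binding factors of other families. In the liver these genes are known for their brief induction after injury or partial hepatectomy, and AP-1, EGR1 and KLF6 have been studied in hepatic stellate cells, the cells that lay down matrix in fibrosis.

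10 genes were named by symbol, namely Fos, Fosb, Jun, Junb, Jund, Egr1, Atf3, Ier2, Ier3 and Klf6. 9 of the 10 were listed among the 19616 genes of the liver expression table, and the expression of Ier2 was not analysed here. They were matched by symbol alone, but the list was drawn up with earlier results of these data known. Liver RNA came from 3 male SD rats of the FL group (FL2, FL5 and FL12), which received intraperitoneal CCl4 mixed with an equal volume of olive oil. The mixture was given at 2 mL/kg body weight 2 times a week for 5 weeks. The 3 male SD rats of the CL group (CL5, CL6 and CL7) received the same volume of olive oil. Each rat gave 1 library of total RNA from whole liver, from which ribosomal RNA had been removed, and the rats were killed under pentobarbital anesthesia. The age of the rats and the hours between the last injection and tissue collection are not given in the sources used here. Expression was measured in FPKM, fragments scaled to transcript length and to the mapped fragments of the library.

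The libraries had the profile of liver. Alb, which encodes albumin, was the most abundant hepatocyte marker, with 33392, 31431 and 31992 FPKM for CL5, CL6 and CL7 and 24149, 25052 and 25209 FPKM for FL2, FL5 and FL12. 0 of the 8 hepatocyte markers passed the limma test between the groups, and 1 of the 8 had an unadjusted p under 0.05. 4 of the 8, Alb, Apob, Ttr and Hnf4a, were nevertheless lower in each FL rat than in each CL rat, and 2 were higher. Among all genes tested, 4.78% were lower in this way and 35.7% were higher. The 8 markers summed to 52348, 50029 and 50525 FPKM in the CL rats and to 42633, 44744 and 44144 FPKM for FL2, FL5 and FL12, so the sum was lower in each FL rat. The SE that limma gave Alb, 0.98, was large beside its residual SD of 0.04, so the missing call says little about so abundant a gene. The tissue also holds stellate cells, macrophages and other cells, so a level in these libraries is a mean over all of them. In bulk tissue, a change in the number of cells of one type and a change in the RNA made by each cell cannot be told apart.

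0 of the 8 members tested differed between the FL and CL groups in limma when at least a 2-fold difference and an adjusted p under 0.05 were required, and 2 of the 8, Atf3 and Junb, had an unadjusted p under 0.05, as did 5276 of all 14864 genes tested, a larger share. A gene was tested when its mean over the 6 rats was at least 0.1 FPKM, which left out Fosb. The fold changes were on the log2(FPKM + 0.1) scale, which understates the change of a gene with few FPKM. Among all 14864 genes tested, 9.29% were upregulated and 0.935% were downregulated in the FL group by the same rule. The groups did not overlap for 1 member, Atf3, which was higher in each FL rat than in each CL rat, and for 0 members in the other direction. Among all genes tested, 35.7% lay above the CL group in each FL rat and 4.78% lay below it. The fold change was positive for 6 members and negative for 2, Jund and Ier3, and the same split was found with median scaling and with quantile normalization.

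The values of the FL group were shifted upward across the table. The median log2 fold change of all genes tested was 0.29 as deposited, 0.08 after median scaling and -0.04 after quantile normalization. Upregulated genes made up 90.9% of all genes called, 82.0% with median scaling and 66.7% with quantile normalization. The median log2 fold change of the members was 0.76, or 0.57 with median scaling and 0.36 with quantile normalization. Without FL5 it was 0.44, beside 0.27 over all genes tested. Relative to the shift of all genes, 6 members lay above it and Jund and Ier3 lay below it, at -0.46 and -0.47 from it on the log2 scale. These medians describe the 8 members and were not tested.

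**Figure D1:**
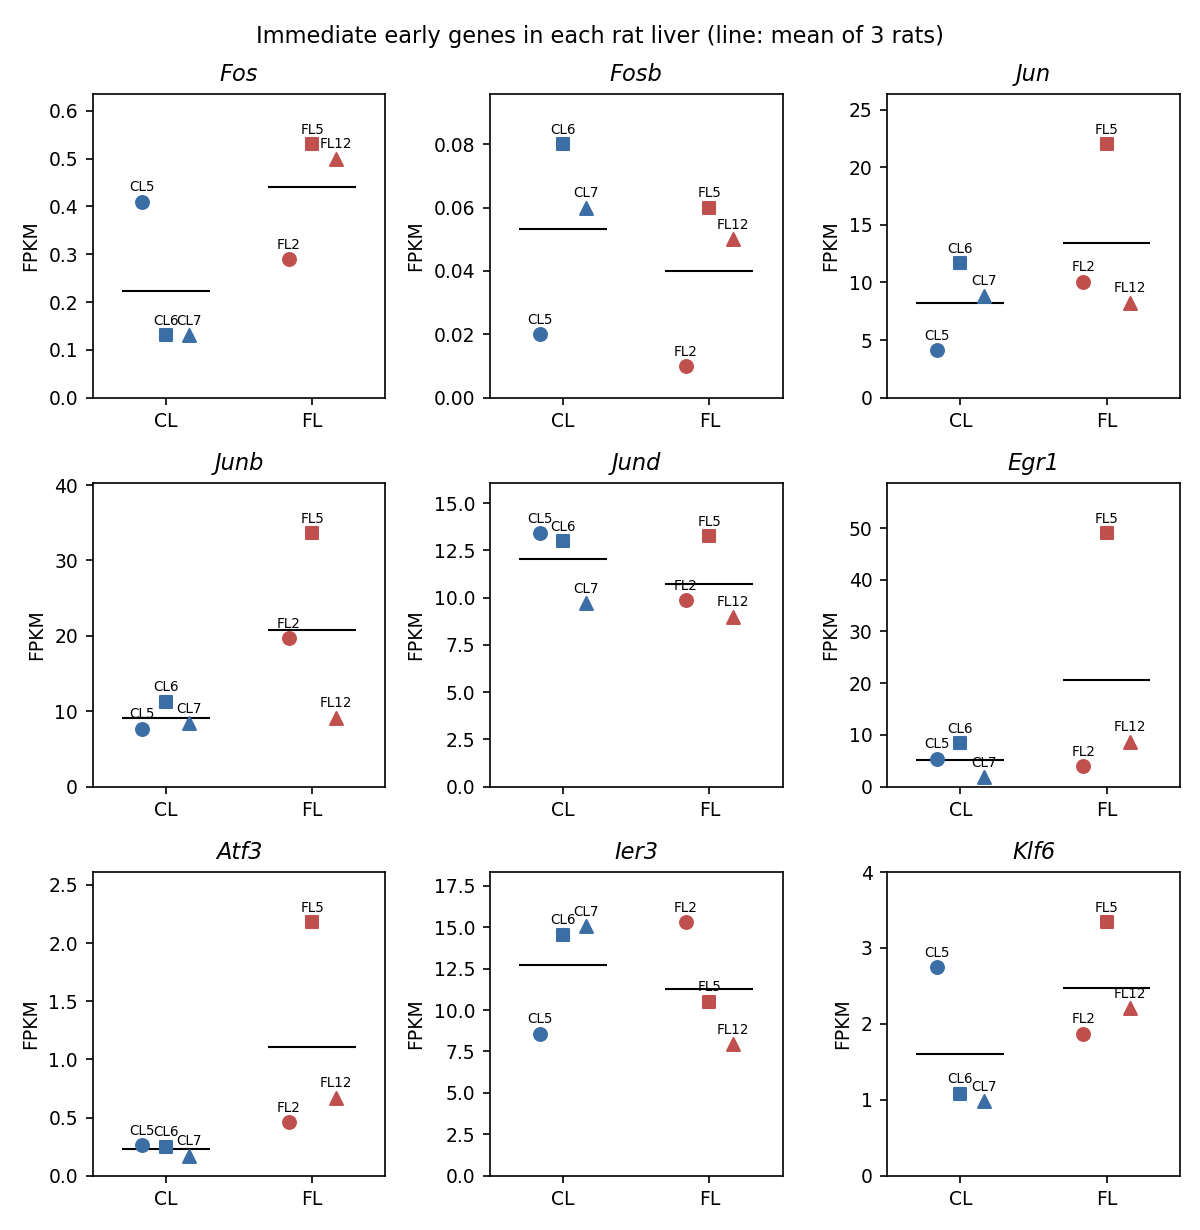
FPKM of the 9 listed immediate early genes in each rat, with CL rats in blue, FL rats in red and a line at the mean of each group of 3. Each panel has its own linear axis from 0. FL5 lies above the other FL rats for Fos, Fosb, Jun, Junb, Jund, Egr1, Atf3 and Klf6, and FL2 is the highest rat for Ier3.

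The levels of the members spanned a wide range. FPKM is scaled for transcript length, but some genes may be listed below their transcript level so the order is that of the listed values. In the CL group the mean ± SD was 12.7 ± 3.62 FPKM for Ier3, 12.04 ± 2.03 for Jund, 9.11 ± 1.92 for Junb, 8.21 ± 3.83 for Jun and 5.23 ± 3.29 for Egr1 (n = 3). Each neighbour in this order overlapped the next over the rats. Klf6 followed at 1.60 ± 0.994 FPKM and overlapped Egr1. Well below it came Atf3 at 0.227 ± 0.0493 and Fos at 0.223 ± 0.162, which were level with each other, and Fosb at 0.0533 ± 0.0306. In the FL group the means led with Junb at 20.8 ± 12.3 FPKM and Egr1 at 20.6 ± 24.7, followed by Jun at 13.4 ± 7.48, Ier3 at 11.3 ± 3.74 and Jund at 10.7 ± 2.25, and these 5 overlapped over the rats. Klf6 at 2.47 ± 0.77, Atf3 at 1.10 ± 0.938, Fos at 0.44 ± 0.131 and Fosb at 0.04 ± 0.0265 FPKM came next, and of these Klf6 overlapped Atf3 and Atf3 overlapped Fos, whereas Fosb lay below all others.

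Fos and Fosb encode the Fos partners of AP-1, which bind DNA only in a dimer with a Jun protein or a related factor. Fos was at 0.41, 0.13 and 0.13 FPKM for CL5, CL6 and CL7 and at 0.29, 0.53 and 0.50 FPKM for FL2, FL5 and FL12. CL5 stood apart from the other CL rats and above FL2, so the groups overlapped. On the log2 scale the difference was 0.82 (SE 0.42, adjusted p = 0.202 in limma), with a 95% confidence interval from -0.16 to 1.79. The difference was 0.24 with quantile normalization and 1.2 without CL5, and over all alternatives the adjusted p in limma ranged from 0.104 to 0.738. Fosb was at 0.02, 0.08 and 0.06 FPKM for CL5, CL6 and CL7 and at 0.01, 0.06 and 0.05 FPKM for FL2, FL5 and FL12. These values are a few steps of the 2 decimals of the table. When all genes above 0 were tested, the log2 fold change of Fosb was -0.13 (SE 0.25, adjusted p = 0.748 in limma).

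Jun, Junb and Jund encode the Jun partners of AP-1, which can pair with Fos proteins or with each other. JUN is a strong activator of transcription, JUNB is a weaker activator that can restrain JUN, and JUND is the member most steadily made in resting cells. Jun was at 4.10, 11.7 and 8.85 FPKM for CL5, CL6 and CL7 and at 10.1, 22.0 and 8.23 FPKM for FL2, FL5 and FL12. FL5 was the highest rat and CL5 the lowest, and the other 4 rats lay between 8.23 and 11.7 FPKM in both groups. The log2 fold change of Jun was 0.69 (SE 0.45, adjusted p = 0.303 in limma), and it was 0.27 without FL5 and 0.26 without CL5.

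Junb was at 7.66, 11.3 and 8.38 FPKM for CL5, CL6 and CL7 and at 19.7, 33.6 and 9.15 FPKM for FL2, FL5 and FL12. FL2 and FL5 lay above each CL rat, whereas FL12 lay within the CL range, so the groups overlapped through 1 rat. Its log2 fold change was 1.01 (SE 0.41, adjusted p = 0.123 in limma), with a 95% confidence interval from 0.06 to 1.97. Without FL12 it was 1.51 with an adjusted p of 0.0211 in limma, which passed both limits. Without FL5 it was 0.57 with an adjusted p of 0.295 in limma, and over all alternatives the adjusted p ranged from 0.0211 to 0.295. Jund was at 13.41, 13 and 9.71 FPKM for CL5, CL6 and CL7 and at 9.85, 13.3 and 8.99 FPKM for FL2, FL5 and FL12. Both groups spread over nearly the same range. Its log2 fold change was -0.17 (SE 0.19, adjusted p = 0.531 in limma), with a 95% confidence interval from -0.60 to 0.26. For Jund it was -0.40 with median scaling, -0.34 without FL5 and -0.06 without FL12. Over all alternatives the adjusted p of Jund in limma ranged from 0.182 to 0.864.

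Egr1 encodes a zinc finger factor that binds GC-rich sites and is induced by growth factors and mechanical stress. It was at 5.39, 8.44 and 1.86 FPKM for CL5, CL6 and CL7 and at 4.0, 49.0 and 8.71 FPKM for FL2, FL5 and FL12. FL5 alone was high, FL2 lay below CL5 and CL6, and FL12 was close to CL6. The value in FL5 was 7.71 times the mean of FL2 and FL12, and on the log2(FPKM + 0.1) scale FL5 exceeded the mean of the log2 values of FL2 and FL12 by 3.03, more than in 99.8% of all genes tested. The log2 fold change was 1.42 (SE 0.88, adjusted p = 0.28 in limma), with a 95% confidence interval from -0.61 to 3.45 that allows both a lower level and a much higher one. Without FL5 it was 0.41 (SE 0.62, adjusted p = 0.687 in limma), and over all alternatives the adjusted p ranged from 0.101 to 0.687.

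Atf3 encodes a stress-induced factor of the ATF/CREB family that can pair with Jun proteins and often represses its targets. Atf3 was at 0.26, 0.25 and 0.17 FPKM for CL5, CL6 and CL7 and at 0.46, 2.18 and 0.67 FPKM for FL2, FL5 and FL12. The CL rats were close together, each FL rat lay above them, and FL5 was the highest by far. The log2 fold change was 1.62 (SE 0.51, adjusted p = 0.0601 in limma), with a 95% confidence interval from 0.45 to 2.79. It was higher in 3 of 3 FL rats but missed the limit on the adjusted p. Without FL2 it passed, with a log2 fold change of 2.03 and an adjusted p of 0.0273 in limma. Without FL5 the log2 fold change was 1.02 with an adjusted p of 0.121 in limma, and over all alternatives the adjusted p ranged from 0.0273 to 0.206.

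Klf6 encodes a zinc finger factor of the Krüppel-like family, also known as the core promoter element binding protein. Klf6 was at 2.75, 1.08 and 0.98 FPKM for CL5, CL6 and CL7 and at 1.87, 3.34 and 2.21 FPKM for FL2, FL5 and FL12. CL5 lay above FL2 and FL12, whereas CL6 and CL7 lay below each FL rat. The log2 fold change was 0.70 (SE 0.39, adjusted p = 0.231 in limma). Without CL5 it was 1.15 with an adjusted p of 0.049 in limma, which passed both limits. It was 0.45 without CL7, 0.47 without FL5 and 0.27 with quantile normalization, and over all alternatives the adjusted p ranged from 0.049 to 0.69.

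Ier3 encodes a small stress-inducible protein that acts on cell survival and ERK signalling and is not a DNA-binding factor. Ier3 was at 8.57, 14.6 and 15.1 FPKM for CL5, CL6 and CL7 and at 15.3, 10.5 and 7.94 FPKM for FL2, FL5 and FL12. The lowest and the highest of the 6 rats were both FL rats. Ier3 had a log2 fold change of -0.18 (SE 0.28, adjusted p = 0.669 in limma), and it was 0.04 without FL12.

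**Figure D2:**
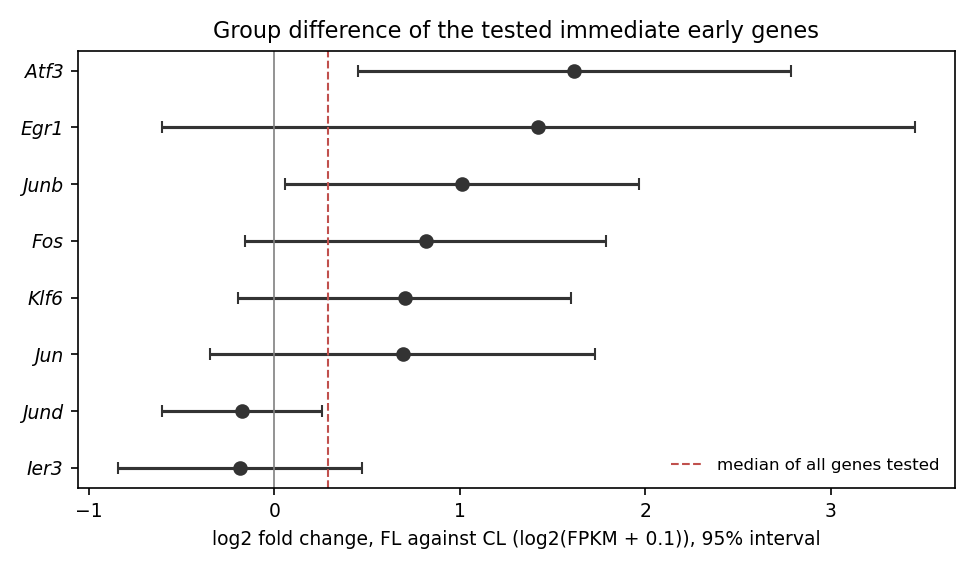
log2 fold change of the FL against the CL group on the log2(FPKM + 0.1) scale for the 8 members tested, with 95% confidence intervals from limma. The dashed line marks the median of all genes tested, 0.29. The intervals of Atf3 and Junb lie above 0, and that of Egr1 is the widest.

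The members varied more between rats of one group than most genes did. The residual SD of log2(FPKM + 0.1) within the groups was 1.51 for Egr1, larger than in 99.0% of all genes tested. It was larger than in 91.3% of genes for Atf3, 91.0% for Jun, 89.2% for Junb, 86.4% for Klf6 and 82.8% for Fos, and the share was 77.4% for Ier3 and 53.9% for Jund. Among genes averaging 1 FPKM or more, where the 0.1 added matters little, the share was 99.6% for Egr1, 97.1% for Jun, 96.4% for Junb, 95.2% for Klf6, 90.1% for Ier3 and 69.5% for Jund. Egr1 was thus the most variable member and Jund the steadiest on both counts.

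FL5 carried the highest value of the 6 rats for 6 of the 8 members tested, Fos, Jun, Junb, Egr1, Atf3 and Klf6. Among all genes tested, 27.9% were highest in FL5, 34.6% in FL12 and 14.7% in FL2. FL12 was the highest rat for 0 of the 8 members, and FL2 and CL5 for 1 each. The log2 value in FL5 exceeded the mean of the log2 values of FL2 and FL12 by 1.80 for Atf3, 1.32 for Junb, 1.27 for Jun, 0.69 for Klf6 and 0.38 for Fos. The median of this difference was 0.98 over the 8 members and 0.08 over all genes tested. FL5 was therefore the rat in which most of these genes stood high together. The sum over the 9 listed members was 42.6, 60.5 and 45.2 FPKM for CL5, CL6 and CL7 and 61.5, 134 and 46.5 FPKM for FL2, FL5 and FL12.

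The patterns across rats set the members apart from each other. The centred log2 values of Fos and Klf6 differed by a root mean square of 0.178 over the 6 rats, and those of Jun and Junb by 0.426. Egr1 and Atf3, which spread more widely, differed by 0.687. The measure grows with the spread of the members, so it does not rank the pairs by likeness. Fos and Klf6 were high in CL5 among the CL rats, whereas Jun and Ier3 were lowest there. Among the 10529 other genes averaging 1 FPKM or more, Ddit3, which encodes the stress factor CHOP, was closest to Klf6 at 0.106. Ddit3 was at 7.05, 3.12 and 2.36 FPKM for CL5, CL6 and CL7 and at 4.70, 7.51 and 5.95 FPKM for FL2, FL5 and FL12. Ppp1r15a, which encodes the stress-induced phosphatase subunit GADD34, was closest to Junb at 0.204. Ppp1r15a was at 1.94, 3.38 and 2.18 FPKM in the CL rats and at 5.28, 7.38 and 3.15 FPKM for FL2, FL5 and FL12. Like Junb, it stood highest in FL5, then in FL2, with FL12 inside the CL range. The likeness follows from how these genes were picked, as the closest of 10529 over 6 rats, and is no separate result. Ppp1r15a also belongs to the list of other immediate early genes read below.

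The closest gene to each of the other members lay at a root mean square of 0.122 for Fos (Bcar3), 0.271 for Jun (Bmyc), 0.0669 for Jund (Large) and 0.105 for Ier3 (Gatsl2). Thbs2, which encodes the matrix protein thrombospondin-2, was closest to Atf3 at 0.283. Thbs2 was at 0.93, 1.04 and 0.83 FPKM in the CL rats and at 1.55, 4.69 and 2.95 FPKM for FL2, FL5 and FL12. For Egr1 the nearest were Tex36 and Ednra at 0.645 and 0.694. This measure grows with the spread of the member itself, whose SD over the 6 rats was 1.42 for Egr1, 0.709 for Jun and 0.239 for Jund, so its values are not to be ranked between members. The next closest were Plxna4a for Fos, PVR for Jun, a gene with no symbol for Junb, Tmbim4 for Jund, Evc for Atf3, B2m for Ier3 and Tor3a for Klf6. For Fosb the nearest were Tex10 at 0.0803 and Slc17a1 at 0.0813, small values because Fosb itself hardly moves on a scale with 0.1 added.

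Other genes of the immediate early response were read in the same way. Of 10 tested dimer partners of AP-1 and ATF proteins, 0 were called in limma and 4 had an unadjusted p under 0.05, with a median log2 fold change of 0.20, below that of all genes. The median turned to -0.02 with median scaling and -0.05 with quantile normalization. With a pseudocount of 0.01, or without FL2, 1 of them was upregulated. Jdp2, a repressor that pairs with Jun proteins, and Mafk, a small Maf protein, reached an adjusted p of 0.0321 and 0.0146 in limma with changes under 2-fold. 7 of the 10 were highest in FL5. Fosl2, a Fos family member, was at 1.23, 2.12 and 1.83 FPKM in the CL rats and at 2.19, 4.54 and 2.72 FPKM for FL2, FL5 and FL12, with a log2 fold change of 0.80 (SE 0.30, adjusted p = 0.0997 in limma). Jdp2, Mafk and Fosl2 were picked out after their values were seen.

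Of 15 other immediate early transcription factors tested, 5 were upregulated and 1 was downregulated, beside 9.29% and 0.935% of all genes tested. The median log2 fold change was 0.51, or 0.31 with median scaling and 0.18 with quantile normalization. Bhlhe40, a repressor of the circadian system, was at 6.87, 11.4 and 9.88 FPKM in the CL rats and at 22.0, 18.0 and 18.3 FPKM for FL2, FL5 and FL12. It rose with a log2 fold change of 1.07 (SE 0.19, adjusted p = 0.0106 in limma) and was at a like level in each FL rat. The orphan nuclear receptor gene Nr4a1 (log2 fold change 1.51), the zinc finger factor gene Klf4 (1.06), Ier5l (1.64) and Csrnp1 (1.24) were the other upregulated genes. Nr4a1 and Ier5l were low, at 0.08 to 0.97 and 0.05 to 0.98 FPKM, and Klf4 averaged 0.49 FPKM in the CL group. Nr4a1 lost its call under 11 of 13 alternatives, Csrnp1 under 11 of 14, Klf4 and Ier5l each under 9 of 13 and Bhlhe40 under 5 of 14. Nfil3, a repressor that binds sites shared with PAR bZIP factors, fell by 1.01 on the log2 scale (SE 0.24, adjusted p = 0.0249 in limma). It was at 22.1, 18.1 and 15.9 FPKM in the CL rats and at 13.3, 8.02 and 7.24 FPKM for FL2, FL5 and FL12. These calls were near the limit, since the number upregulated was 0 with median scaling, with quantile normalization or with a pseudocount of 1. The number was 2 with a mean of at least 1 FPKM, 1 with no filter on low values and 4 with a robust prior. It was 0, 4 and 1 without CL5, CL6 and CL7 and 3, 1 and 2 without FL2, FL5 and FL12. Nfil3 was also called with median scaling and quantile normalization, but not with a pseudocount of 1 or without trend, nor without CL5, CL6, CL7, FL5 or FL12, and over all alternatives its adjusted p in limma ranged from 0.00475 to 0.0877.

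Of 27 other immediate early genes tested, 7 were upregulated and 0 were downregulated, beside 9.29% and 0.935% of all genes tested. The median log2 fold change was 0.60, or 0.38 with median scaling and 0.31 with quantile normalization. Rhob, a small GTPase gene, was at 4.36, 4.61 and 4.43 FPKM in the CL rats and at 7.75, 10.8 and 12.7 FPKM for FL2, FL5 and FL12, a log2 fold change of 1.18 (SE 0.18, adjusted p = 0.00677 in limma). The CL rats were almost level and each FL rat lay above them. The matricellular genes Cyr61 and Ctgf rose with log2 fold changes of 1.2 and 1.37, and the others upregulated were Ptgs2 (1.90), Plk3 (1.11), Phlda1 (1.17) and Tnfaip3 (1.07). Ptgs2 was at 0.04, 0.11 and 0.05 FPKM in the CL rats and at 0.22, 0.79 and 0.70 FPKM for FL2, FL5 and FL12. Its mean reached the 0.1 FPKM needed for testing only through the FL rats, and its CL values are a few steps of the 2 decimals. Cyr61 lost its call under 11 of 14 alternatives, and its log2 fold change was 0.74 without FL5. Ctgf lost its call under 9 of 13. Ptgs2, Plk3, Phlda1 and Tnfaip3 each lost theirs under 7, and Rhob under 2. The number upregulated was 1 with median scaling, 0 with quantile normalization and 1 with a pseudocount of 1. The gene called was Ptgs2 with median scaling, where Rhob had a log2 fold change of 0.955, and Rhob with a pseudocount of 1. It was 1, 3 and 3 without CL5, CL6 and CL7 and 6, 1 and 4 without FL2, FL5 and FL12, and 1 gene was downregulated without CL5.

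Some genes of this list spread widely within the groups, and 4 of them were picked out after their values were seen. Dusp1, which encodes a phosphatase that shuts off MAP kinases, was at 5.21, 45.7 and 43.1 FPKM for CL5, CL6 and CL7 and at 36.4, 16.8 and 4.71 FPKM for FL2, FL5 and FL12. Gadd45g, a growth arrest gene, was at 2.14, 26.4 and 38.2 FPKM in the CL rats and at 3.44, 2.24 and 3.16 FPKM for FL2, FL5 and FL12. In both, CL5 stood below CL6 and CL7, and its Gadd45g value was like that of the FL rats. Gadd45b, a related gene, was at 4.91, 1.61 and 1.52 FPKM in the CL rats and at 4.80, 11.8 and 3.19 FPKM for FL2, FL5 and FL12, with CL5 highest among the CL rats as for Fos and Klf6. Socs3, an inhibitor of cytokine signalling, was at 1.19, 3.42 and 3.21 FPKM in the CL rats and at 15.1, 2.55 and 2.23 FPKM for FL2, FL5 and FL12. Here FL2 was the rat that stood apart, and FL5 lay within the CL range.

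The kinases and transcription factors of 2 upstream lists were read next. Of 16 kinase genes of the ERK, JNK and p38 pathways, 0 were called in limma and 4 had an unadjusted p under 0.05, with a median log2 fold change of 0.17, below that of all genes, and 1 was upregulated without FL2. The median turned to -0.02 with median scaling and -0.10 with quantile normalization. Rps6ka3, a kinase activated by ERK, had a log2 fold change of 0.90 (adjusted p = 0.0179 in limma), and Mapk9, a JNK gene, one of -0.45 (adjusted p = 0.0495 in limma), both short of the 2-fold limit. Of 7 genes of transcription factors that act on immediate early promoters, 0 were called in limma and 4 had an unadjusted p under 0.05, with a median of 0.32, or 0.10 with median scaling and 0.04 with quantile normalization. Srf, whose product binds the CArG box, was at 2.48, 3.19 and 3.28 FPKM in the CL rats and at 4.45, 4.16 and 3.75 FPKM for FL2, FL5 and FL12. Each FL rat lay above the CL rats, and the log2 fold change was 0.46 (SE 0.16, adjusted p = 0.0808 in limma). Crem, a relative of CREB with activating and repressing forms, was at 6.27, 7.11 and 7.06 FPKM in the CL rats and at 3.82, 4.04 and 3.28 FPKM for FL2, FL5 and FL12. For Crem the log2 fold change was -0.86 (SE 0.13, adjusted p = 0.00686 in limma), short of the 2-fold limit, and with median scaling or quantile normalization 1 of the 7 genes was called as downregulated. Elk3 and Mkl1, whose products act with or beside SRF, were higher in each FL rat than in each CL rat, with log2 fold changes of 0.77 and 0.51 (adjusted p = 0.014 and 0.0391 in limma), also short of 2-fold. The genes named from these 2 lists were picked out after their values were seen.

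Of 15 textbook target genes of AP-1 and EGR1 tested, 9 were upregulated and 0 were downregulated, beside 9.29% and 0.935% of all genes tested. The median log2 fold change was 1.18, or 1.0 with median scaling and 0.88 with quantile normalization. These genes also answer to other factors, and their link to the members was not tested. Cd44, a hyaluronan receptor gene, was at 0.55, 1.07 and 0.77 FPKM in the CL rats and at 2.93, 4.79 and 4.49 FPKM for FL2, FL5 and FL12, a log2 fold change of 2.23 (SE 0.28, adjusted p = 0.00414 in limma). Spp1, the osteopontin gene, was at 0.37, 2.81 and 0.74 FPKM in the CL rats and at 7.34, 60.6 and 31.1 FPKM for FL2, FL5 and FL12, a log2 fold change of 4.53 (SE 0.85, adjusted p = 0.0119 in limma). In both, FL5 was highest and FL2 lowest of the FL rats, still above each CL rat, and FL12 was near FL5 for Cd44 but not for Spp1. Without CL7 the adjusted p of Spp1 was 0.0508 in limma, and over all alternatives it ranged from 0.00565 to 0.0508. Ccl2 (2.33), Ccnd1 (2.13), F3 (1.74), Tgfb1 (1.18), Plau (1.12) and Hmox1 (1.06) were also among those upregulated, with log2 fold changes in brackets. The number upregulated was 4 with median scaling or a pseudocount of 1 and 2 with quantile normalization. It was 7, 7 and 3 without CL5, CL6 and CL7 and 9, 4 and 6 without FL2, FL5 and FL12.

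Heat shock genes, which answer to protein stress, were read for comparison, again beside 9.29% of all genes tested upregulated and 0.935% downregulated. Of 7 tested, Hspb1 alone was upregulated and 0 were downregulated, and the median log2 fold change was 0.09, or -0.13 with median scaling and -0.27 with quantile normalization. Hspb1 was at 2.63, 3.95 and 2.97 FPKM in the CL rats and at 5.89, 13.8 and 6.42 FPKM for FL2, FL5 and FL12, a log2 fold change of 1.33 (SE 0.32, adjusted p = 0.0268 in limma). Its call was lost with median scaling, with quantile normalization and without trend, and without CL5, CL7 or FL5, and over all alternatives its adjusted p ranged from 0.0207 to 0.0916. Hspa8 and Hsp90aa1, picked out after their values were seen, encode abundant chaperones of every cell, yet they were listed at 0.89 to 1.31 and at 0.07 to 0.29 FPKM. A low FPKM in this table may therefore not mark a low transcript level, for Fos and Fosb too.

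**Figure D3:**
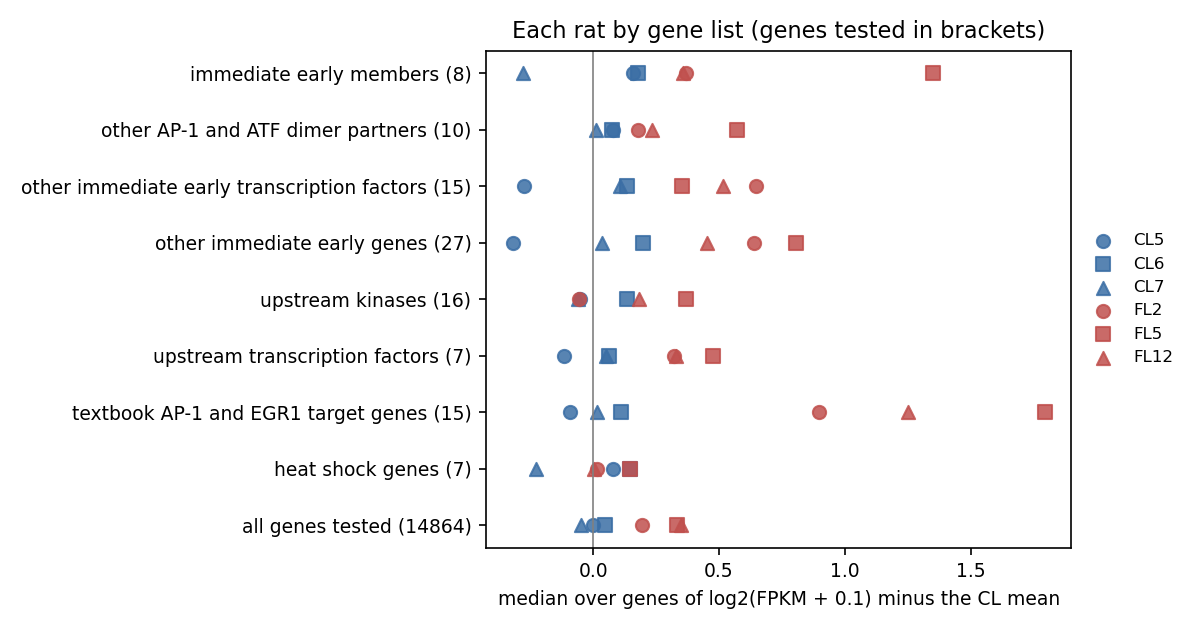
Median over the genes of each list of log2(FPKM + 0.1) minus its CL mean, for each of the 6 rats, with the number of genes tested in brackets. For the immediate early members FL5 lies at 1.35 while FL2 and FL12 lie at 0.37 and 0.36, and over all genes tested the 3 FL rats lie between 0.20 and 0.35.

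Markers of other liver cells differed between the same rats. Their calls stand beside 9.29% of all genes tested upregulated and 0.935% downregulated. Of 7 tested markers of stellate cells or myofibroblasts, 4 were upregulated and 0 downregulated, and the 8 markers summed to 79.3, 83.6 and 77.3 FPKM for CL5, CL6 and CL7 and to 193, 529 and 480 FPKM for FL2, FL5 and FL12. The most abundant, Col3a1, was at 46.5, 51.8 and 48.7 FPKM in the CL rats and at 140.5, 341.7 and 338.6 FPKM for FL2, FL5 and FL12. Col3a1 made up most of each sum and was close in FL5 and FL12, whereas Acta2 was at 17.3 and 9.59 FPKM, Col1a1 at 101.2 and 73.7 FPKM and Pdgfrb at 9.70 and 13.1 FPKM in these 2 rats. Col1a2 was listed at 0.01 to 0.18 FPKM, far below Col1a1, so its value may not mark its transcript level. Of 6 macrophage markers, 3 were upregulated and 0 downregulated, with sums of 93.2, 88.7 and 91.7 FPKM in the CL rats and 218, 194 and 119 FPKM for FL2, FL5 and FL12. Clec4f, the most abundant of them, was at 49.9, 43.2 and 48.4 FPKM in the CL rats and at 66.6, 57.4 and 26.3 FPKM for FL2, FL5 and FL12. Among the FL rats the sum was highest in FL2 and lowest in FL12, but 4 of the 6 markers, Cd68, Adgre1, Cd163 and Csf1r, were highest in FL5. Of the 7 tested stellate cell or myofibroblast markers 5 were highest in FL5, as were 27.9% of all genes tested. The number was 0 of 3 for the tested neutrophil markers and 1 of 8 for the hepatocyte markers. The median log2 difference of the 6 markers from the CL mean was 0.92, 1.21 and 0.68 for FL2, FL5 and FL12.

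The neutrophil markers S100a8, S100a9 and Csf3r were all upregulated, 3 of 3 tested, beside 9.29% of all genes tested. The sum of the 5 neutrophil markers was 0.20, 0.74 and 1.06 FPKM in the CL rats and 4.35, 1.88 and 3.86 FPKM for FL2, FL5 and FL12. S100a8, the most abundant, was at 2.20, 0.96 and 2.29 FPKM for FL2, FL5 and FL12, and the granule genes Mpo and Elane were listed at 0 in each CL rat and in FL5. Of 7 lymphocyte markers tested 1 was upregulated, Cd4, which made up most of the sum and which rat macrophages also express. The T cell genes Cd3e and Cd3d were not called (adjusted p = 0.44 and 0.783 in limma), and the sums were 12.2, 10.2 and 10.6 FPKM in the CL rats and 22.4, 29.5 and 23.7 FPKM for FL2, FL5 and FL12. Of 5 endothelial markers 1 was upregulated, Vwf, and Kdr was the most abundant, with sums of 65.8, 64.3 and 58.3 FPKM in the CL rats and 79.1, 65.2 and 75.3 FPKM for FL2, FL5 and FL12. Of 4 cholangiocyte markers, led by Epcam, 0 were called in limma and 0 had an unadjusted p under 0.05, and the sums were 5.26, 7.68 and 5.51 FPKM in the CL rats and 5.18, 7.72 and 10.4 FPKM for FL2, FL5 and FL12. Of 4 erythroid genes, led by Hbb, 0 were called in limma and 1 had an unadjusted p under 0.05, and the sums, 91.0, 161 and 114 FPKM in the CL rats and 129, 49.1 and 50.1 FPKM for FL2, FL5 and FL12, were lowest in FL5 and FL12. Cell type markers named beyond the most abundant of each list were picked out after their values were seen. The part of these cells in the levels of the immediate early genes was not tested.

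The promoters of 6 of the 10 members, Egr1, Fosb, Ier2, Junb, Jund and Klf6, were matched in the RefSeq promoter table of the rat build GRCr8, which gives 250 bases before and 50 bases after the start of each gene. Those of Egr1 and Junb are shown because these genes had the highest mean levels in the FL group and differed in FL2, where Junb was high and Egr1 was not. Capitals mark the CArG box, the sequence bound by SRF, the core TGACG of the cAMP response element on either strand, and the AP-1 site TGANTCA, of which neither window has one. The Egr1 window is chr18:26736828-26737127 on the plus strand, and the Junb window is chr19:40080876-40081175 on the plus strand.
Egr1: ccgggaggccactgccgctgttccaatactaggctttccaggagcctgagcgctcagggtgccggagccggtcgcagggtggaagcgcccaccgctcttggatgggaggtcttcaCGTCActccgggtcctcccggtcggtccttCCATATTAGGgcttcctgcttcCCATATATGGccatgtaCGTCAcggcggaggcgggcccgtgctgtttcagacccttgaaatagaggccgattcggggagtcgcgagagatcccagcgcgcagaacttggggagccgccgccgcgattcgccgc
Junb: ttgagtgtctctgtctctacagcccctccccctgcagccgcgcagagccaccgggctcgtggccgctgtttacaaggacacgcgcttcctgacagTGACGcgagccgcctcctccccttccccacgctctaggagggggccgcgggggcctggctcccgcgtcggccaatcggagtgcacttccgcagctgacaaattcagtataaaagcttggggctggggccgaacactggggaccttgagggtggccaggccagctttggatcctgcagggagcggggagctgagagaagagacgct

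The Egr1 window held 2 CArG boxes, CCATATTAGG from -105 to -96 and CCATATATGG from -83 to -74 relative to the start, and 2 TGACG cores on the minus strand. The Junb window held 1 TGACG core from -155 to -151 and a TATA box, TATAAA, from -49 to -44 (not in capitals), and no CArG box. Klf6 held 1 CArG box, CCTTTAATGG from -201 to -192. Jund and Ier2 each held the full element TGACGTCA, which contains the core on both strands, and Jund also held 3 matches to the EGR site GCGNGGGCG. Fosb held none of these motifs within the window. Of the 33469 promoters of the table, searched on both strands, 1.64% held a CArG box, 1.83% TGACGTCA, 21.2% TGACG, 7.33% TGANTCA and 4.98% GCGNGGGCG, and 8.8% held TATAAA on the given strand. A match is a description of the letters, not a site or a cause.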

How the data were processed

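Total RNA of liver from 3 CL and 3 FL rats was sequenced, with 1 library per rat. Per the paper and the labels, the authors used FASTX-Toolkit for trimming and TopHat2 for alignment to a genome named as GRCh38, although the gene identifiers are those of rat Ensembl, and kept uniquely mapped reads. The table that the authors deposited holds FPKM, rounded to 2 decimals, with no stated scaling between rats. Genes with near-identical copies can lose reads in such counting. 2 further columns of values were not used, because no sample carries their names. Total read counts were not used here, so no counting interval was given. The lowest steps in 114 U6 genes gave only relative depths of 1.52, 1.0 and 1.28 for CL5, CL6 and CL7 and 1.03, 1.14 and 1.03 for FL2, FL5 and FL12. The sums of FPKM were 309425, 340467 and 315259 in the CL rats and 309226, 272350 and 272110 in FL2, FL5 and FL12.

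Groups came from the labels. The FL and CL groups were compared with limma (trend) on log2(FPKM + 0.1) over the 14864 genes averaging 0.1 FPKM or more, two-sided, with Benjamini-Hochberg adjustment over all of them. A call required a difference of at least 2-fold with an adjusted p under 0.05. The authors tested read counts with edgeR, which was not used here. With n of 3 per group, p-values rest on the spread within the groups of 3 rats. Limma moderates this spread toward a trend with level over all genes tested, so an SE is not that of the gene alone. No pair of libraries looked duplicated: pairs of rats shared between 0.99% and 2.87% identical values above 0. Members and gene lists were chosen with earlier results of these data known. Genes named were the members, list genes called in either direction up to the 8 with the smallest adjusted p, the most abundant marker of each cell type and the 2 genes closest in pattern to each member, and exceptions are stated. The values of 1 further gene that this rule names are not reported here. Egr4, Mcl1, Mkl2 and Pecam1 of the lists had no matching symbol and were not analysed here. The alternatives tried were to leave out each rat, to add 0.01 or 1 in place of 0.1, to drop the filter or raise it to 1 FPKM, to scale by medians or normalize quantiles, to fit limma with a robust prior or without trend, and to count calls of any fold change. The procedure was tested on simulated data, and the outcome of that test is not reported here. Promoters came from RefSeq (GRCr8). Software comprised limma 3.58.1 in R 4.3.3, and scipy 1.17.1, matplotlib 3.10.9, pandas 2.3.3 and numpy 2.4.6 in Python 3.11.15.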

Additional observations from a re-analysis of the deposited data

How the results depend on the processing

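Of 110 results of the 8 tested members under the alternatives, 106 kept their direction and their side of the limits, 3 came to pass them (Klf6 without CL5, Junb without FL12 and Atf3 without FL2) and 1 changed its sign. The sign changed for Ier3, whose log2 fold change ranged from -0.45 without CL5 to 0.038 without FL12. The number of members upregulated was 0 under each other alternative and ranged from 0 to 1 when a rat was left out, and 0 members were downregulated under any alternative. The counts over all genes moved more. Upregulated genes numbered 1381, against 854 with a mean of at least 1 FPKM, 826 with median scaling, 462 with a pseudocount of 1, 456 with quantile normalization and 2518 without a limit on the fold change, and 740 to 1831 when a rat was left out. Downregulated genes numbered 139, against 72 with a pseudocount of 1, 228 with quantile normalization and 288 without a limit on the fold change, and 81 to 160 when a rat was left out. Fewer genes tested and fewer rats are part of these alternatives by construction, and the cause of the other moves was not tested. No paired analysis was made because the paper states that rats were assigned to the groups at random and names no pairs. Read counts were not used, so the limit that depth sets on low values such as those of Fos and Fosb was not measured.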
